A study of Saccharomyces cerevisiae with 8 samples.

Results

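The genes described here are 9 *Saccharomyces cerevisiae* genes of cell wall integrity and structure, chosen by name with earlier results of these data known. They were located by systematic identifier among the 6697 coding sequences (CDS) with counts. They are SLT2 (YHR030C), PIR1 (YKL164C), PIR3 (YKL163W), HSP150 (YJL159W), CIS3 (YJL158C), CWP1 (YKL096W), CRH1 (YGR189C), FKS1 (YLR342W) and FKS2 (YGR032W, named GSC2 in RefSeq). All 9 passed the filter on low counts that left 6498 genes. The RNA came from strain BY4741, a haploid laboratory strain lacking URA3, LEU2 and MET17 (also called MET15), and was depleted of ribosomal RNA before 50-base single-end sequencing. Cycloheximide blocks the elongating ribosome, and LiCl brings ionic and osmotic stress. Along a growth isobole, a line of drug combinations with the same inhibition of growth (50%), 7 liquid cultures were grown in YPD, a rich medium. Point 1 held cycloheximide only, points 2 to 6 held both drugs at changing ratios, and point 7 held LiCl only. The remaining culture grew in YPD without drug and was started from a more dilute inoculum. Each condition was 1 library, so there were no replicates, and the errors of single values given below cover counting error only.

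The yeast cell wall is built of β-1,3-glucan, β-1,6-glucan, chitin and mannoproteins, which are proteins carrying long mannose chains. When the wall is strained, membrane sensors of the Wsc and Mid2 type act through the GTPase Rho1 and the kinase Pkc1 on a MAP kinase cascade that ends in Slt2. Slt2 activates the transcription factors Rlm1 and SBF (Swi4 with Swi6), and many wall protein genes are known targets of Rlm1. Among the genes described here, PIR1, PIR3, HSP150 (PIR2) and CIS3 (PIR4) encode PIR proteins, mannoproteins with internal repeats that are bound covalently to β-1,3-glucan. CWP1 encodes a mannoprotein attached through a remnant of its GPI anchor, and CRH1 encodes an enzyme that joins chitin to glucan. FKS1 and FKS2 encode alternative catalytic subunits of β-1,3-glucan synthase, FKS1 being the form used in growing cells and FKS2 the form known for induction under stress, on poor carbon sources and by calcium signalling through calcineurin.

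In each library the CDS counts totalled 13693401 to 28042336, with 6616 to 6654 genes counted and 12.7% to 15.1% of the counts in the top 10 genes. URA3 had 0 counts throughout, LEU2 had 1 count in 1 library and MET17 had 2 counts in another. Levels are given as counts per 1000000 CDS counts (CPM), scaled by the trimmed mean of M values (TMM), and between genes as CPM per kilobase of CDS. The lowest count behind any of the 72 values of the 9 genes was 302. A bulk library cannot tell fewer cells that express a gene from less RNA per cell.

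How far these counts can be told apart depends on the sequences, because the authors counted a read at every place to which it mapped. FKS1 (chromosome XII, 809997 to 815627, plus strand) and FKS2 (chromosome VII, 548264 to 553951, plus strand) were 80.7% identical over 5610 aligned bases of CDS. Of 5184 gap-free aligned windows of 50 bases, the length of a read, 0 were identical. The number of differences per window was 1 to 25 with a median of 9, so reads from the most similar windows may not separate where an aligner tolerates mismatches. A window with the median number is shown. Coordinates and sequence are those of the RefSeq R64 genome, 5′ to 3′ along the gene, and capitals mark the bases that differ.
FKS1 (chrXII:810397-810446, plus strand): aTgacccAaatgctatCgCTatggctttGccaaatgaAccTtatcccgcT
FKS2 (chrVII:548721-548770, plus strand): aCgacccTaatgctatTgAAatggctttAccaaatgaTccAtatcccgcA

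The PIR genes lie as neighbouring pairs. PIR1 (chromosome XI, 141794 to 142819, minus strand) and PIR3 (chromosome XI, 144401 to 145378, plus strand) point away from each other across 1581 bases. HSP150 (chromosome X, 120449 to 121690, plus strand) and CIS3 (chromosome X, 122265 to 122948, minus strand) point towards each other across 574 bases. PIR1 and PIR3 were 79.2% identical, and HSP150 and CIS3 80.0%. Each pair also holds a stretch identical in both genes, so reads from it were counted for both. The stretch is shown because it sets a limit on the PIR3 values.
PIR1 (chrXI:142701-142781, minus strand) and PIR3 (chrXI:144439-144519, plus strand): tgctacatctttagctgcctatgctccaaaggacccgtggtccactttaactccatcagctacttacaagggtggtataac
HSP150 (chrX:121451-121515, plus strand) and CIS3 (chrX:122440-122504, minus strand): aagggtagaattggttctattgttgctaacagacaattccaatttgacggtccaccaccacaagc

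Windows of 50 bases identical to a window of the neighbour numbered 60 in PIR1 and PIR3 and 16 in HSP150 and CIS3. Windows repeated within the same gene numbered 72 in HSP150, 40 in PIR3, 10 in PIR1 and 0 in CIS3. A read from such a repeat could be counted more than once for its gene. The levels, ratios and counting errors were not corrected for this. If reads were spread evenly over each CDS, 34.0% of the PIR3 counts without drug and 13.8% to 30.6% at the isobole points would be reads of PIR1. The matching share of CIS3 counts from HSP150 was 5.66% to 8.13% over the 8 libraries. In the other direction it was 0.763% to 2.43% of PIR1 counts and 0.380% to 0.560% of HSP150 counts. SLT2 (chromosome VIII, 168890 to 170344, minus strand), CWP1 (chromosome XI, 261132 to 261851, plus strand), CRH1 (chromosome VII, 876669 to 878192, minus strand), FKS1 and FKS2 had no 50-base window found elsewhere in the genome. None of the 9 CDS overlaps another annotated CDS.

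Motifs of the wall pathway were searched in the 600 bases before each CDS, on both strands. For Rlm1 the letters searched were TANNNNTAG with A or T at each N, and 7 of the 9 genes held a match, all except CIS3 and FKS1. Of 6661 genes with a full window, 23.6% held one. The SBF motif CGCGAAA stood before CWP1 and FKS1, against 6.10% of all genes. The calcineurin response motif GNGGCGCA or GNGGCTCA stood within this window before 0 of the 9 genes, against 4.53% of all. Sequence farther upstream was not searched, so these counts do not show that FKS2 or another gene lacks a motif there. One Rlm1 match each is shown for the MAP kinase gene and for the 3 genes whose quadratic term passed the test given below, and both SBF matches are shown, with 10 flanking bases, with the motif in capitals and along the strand of the gene. A match describes these letters and does not show binding.
SLT2, Rlm1 motif (chrVIII:170558-170586, minus strand): gtttcagtgtTAAAAATAGaaactgaaaa
PIR3, Rlm1 motif (chrXI:144112-144140, plus strand): attagcaaacTAATTATAGatcaaaggcc
CWP1, Rlm1 motif (chrXI:260737-260765, plus strand): acgtcataacTAAAAATAGcgttagccac
CRH1, Rlm1 motif (chrVII:878389-878417, minus strand): gggaatgtgaTATAATTAGagcgtatggt
CWP1, SBF motif (chrXI:260663-260689, plus strand): aaacccctccCGCGAAAacaaaaaaag
FKS1, SBF motif on the opposite strand (chrXII:809485-809511, plus strand): ggcgacgaatTTTCGCGttttgatgaa

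Per kilobase of CDS, the order of the 9 genes spanned a wide range. Without drug the levels were 886 CPM per kb for HSP150, 279 for CIS3, 126 for PIR1, 100.2 for FKS1, 66.2 for CRH1, 48.1 for FKS2, 38.7 for SLT2, 36.4 for CWP1 and 23.6 for PIR3. The 95% counting intervals of SLT2 (36.0 to 41.6 CPM per kb) and CWP1 (32.7 to 40.5 CPM per kb) overlapped, while those of the other neighbours in this order did not. At point 4 CWP1 stood at 157 CPM per kb, behind HSP150 (932), CIS3 (289) and PIR1 (168), and PIR3 stood at 76.7 CPM per kb, above SLT2 (52.2) and FKS2 (42.2). The counting intervals of CWP1 (149.7 to 164.4 CPM per kb) and PIR1 (161.6 to 174.3 CPM per kb) overlapped at point 4. FKS1 had a higher level per base than FKS2 in each of the 8 libraries.

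Most of the wall genes were highest where both drugs were present. In 7 of the 9 genes, all 5 mixtures lay above both single-drug libraries, a pattern shared by 4.57% of all genes tested. In 0 of the 9 did all 5 lie below both, against 4.79% of all genes. The genes with this pattern were SLT2, PIR3, HSP150, CIS3, CWP1, CRH1 and FKS1, and the exceptions were PIR1 and FKS2. This rule was set after the values were seen. Under scaling by total counts it held in 6 of the 9, because SLT2 at point 5 then lay just below cycloheximide only. With TMM, the 95% counting intervals of SLT2 at points 5 and 6 and of CIS3 at point 6 overlapped those in cycloheximide only. The difference was largest for CWP1 and PIR3, whose mean level in the mixtures was 2.89-fold and 1.89-fold that of the single-drug libraries on the log scale. For SLT2, HSP150, CRH1 and FKS1 it was 1.29-fold, 1.36-fold, 1.33-fold and 1.32-fold. For CIS3, PIR1 and FKS2 it was 1.14-fold, 1.12-fold and 1.12-fold. The median over the 9 genes was 0.40 on the log2 scale, beside -0.0032 over all genes.

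**Figure D1:**
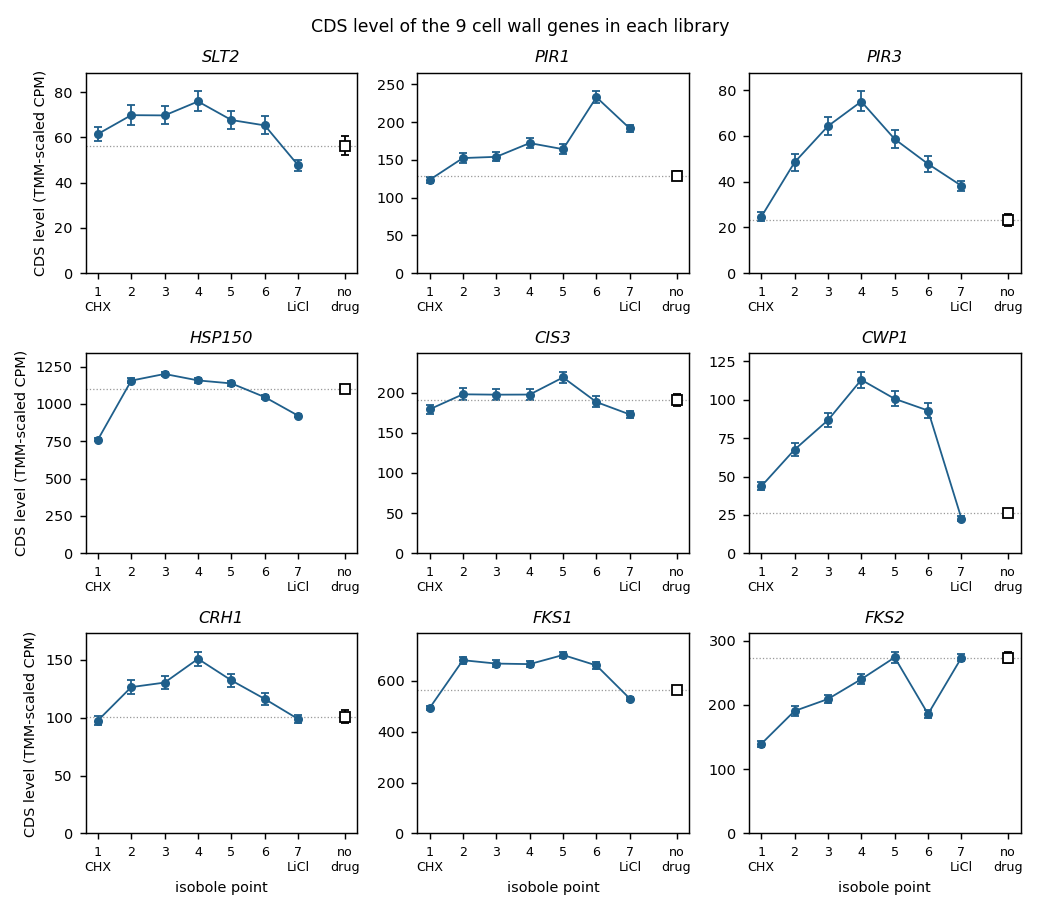
CDS level of each gene (vertical axis, TMM-scaled CPM, from 0) at isobole points 1 to 7 (filled circles, CHX for cycloheximide only) and without drug (open square and dotted line), 1 library each, with bars for the 95% counting interval. CWP1 and PIR3 peak at point 4 with 113 and 75.0 CPM, while FKS2 returns to its level without drug at points 5 and 7.

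SLT2, the MAP kinase at the end of the wall integrity cascade, had 61.5, 69.9, 69.8, 75.9, 67.7, 65.3 and 47.7 CPM at points 1 to 7, against 56.4 CPM without drug. It was above the level without drug at every point except LiCl only. The highest value was 1.59-fold the lowest.

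CWP1, the GPI mannoprotein of the wall, varied most among the 9 genes. It had 43.5, 67.5, 86.7, 113, 100.6, 93.0 and 22.6 CPM at points 1 to 7, against 26.2 CPM without drug. The mixtures stood 2.57-fold to 4.30-fold above the culture without drug, cycloheximide only 1.66-fold above it and LiCl only 0.862-fold of it. Between LiCl only and point 6, the neighbouring mixture, CWP1 differed by -2.04 on the log2 scale (counting SE 0.067). The other 8 genes differed there by -0.46 to 0.56.

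PIR3 had 24.5, 48.4, 64.3, 75.0, 58.6, 47.7 and 38.2 CPM at points 1 to 7, against 23.1 CPM without drug. It was the only one of the 9 whose level without drug lay below all 7 isobole libraries, a pattern of 29.4% of all genes. Under scaling by total counts 7 of the 9 had it, and the share of all genes under that scaling was not counted. That scaling raised most genes, with 69.8% of all genes higher in LiCl only than without drug, beside 51.2% with TMM. In cycloheximide only it was 80.0%, beside 53.9%. With TMM the isobole library closest to PIR3 without drug was cycloheximide only, whose 1.06-fold difference was within counting error (log2 0.09, counting SE 0.10). In the mixtures PIR3 was 2.07-fold to 3.24-fold higher than without drug. With the reads shared with PIR1 taken out under even coverage, an estimate added after seeing the data, these folds were 2.20 to 4.24. PIR3 and CWP1 were the 2 of the 9 genes at least 2-fold above the culture without drug in all 5 mixtures, against 4.88% of all genes.

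PIR1, the most abundant of this divergent pair, did not share the shape of PIR3. It had 123, 152, 154, 172, 164, 233 and 191.5 CPM at points 1 to 7, against 129 CPM without drug. The highest value was at point 6, and cycloheximide only was the isobole library below the culture without drug. HSP150, a heat-induced PIR protein and the most abundant of the 9 genes, had 761, 1156, 1201, 1157, 1137, 1046 and 921 CPM, against 1100 CPM without drug. Both single-drug libraries and point 6 were below the level without drug, and cycloheximide only was lowest at 0.691-fold of it. CIS3 moved least, with 179, 198, 197, 197.5, 219, 188 and 173 CPM, against 191 CPM without drug, and its highest value was 1.27-fold its lowest.

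CRH1, the chitin to glucan transglycosylase, had 97.5, 126, 130.2, 151, 132, 116 and 98.7 CPM at points 1 to 7, against 101 CPM without drug. The single-drug libraries and the library without drug lay close together and all 5 mixtures above them. FKS1 had 492, 680.5, 667, 665, 701, 659.9 and 529 CPM, against 564 CPM without drug. Its 5 mixtures lay within a narrow band above the other 3 libraries.

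A quadratic term along the 7 isobole points asked whether a level bent beyond a straight trend, with a value below 0 for genes higher in the middle. By edgeR's quasi-likelihood test with Benjamini-Hochberg adjustment over 6524 genes, 3 of the 9 genes bent below 0, against 0.874% of all genes (57 genes), and 0 bent above 0, against 0.307% (20 genes). They were PIR3 (-0.13 per point squared on the log2 scale, edgeR adjusted p = 0.0117), CWP1 (-0.20, edgeR adjusted p = 0.0259) and CRH1 (-0.06, edgeR adjusted p = 0.0347). SLT2 (-0.05, edgeR adjusted p = 0.0670), HSP150 (-0.06, edgeR adjusted p = 0.0766) and FKS1 (-0.05, edgeR adjusted p = 0.0906) did not pass, nor did CIS3, FKS2 and PIR1, with edgeR adjusted p of 0.222, 0.346 and 0.719. At an unadjusted p under 0.05 there were 7 of the 9, all except PIR1 and FKS2, against 21.3% of all genes. The fitted term was below 0 in 9 of 9 genes and in 48.8% of all.

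These calls depended on single libraries and on the tool. DESeq2 called 6 of the 9 genes below 0, adding SLT2, HSP150 and FKS1 (DESeq2 adjusted p = 0.0366, 0.00897 and 0.0243), against 3.08% of all genes. Without the cycloheximide only library edgeR called 0 genes in the genome at an adjusted p under 0.05 and 1152 at an unadjusted p under 0.05, and the edgeR adjusted p was 0.107 for PIR3, 0.107 for CWP1 and 0.174 for CRH1. Without point 3 it was 0.0573, 0.0651 and 0.109 for the same genes in that order, and without point 4 it was 0.0583, 0.108 and 0.128. CRH1 was also lost without LiCl only (edgeR adjusted p = 0.187) and under scaling by total counts (0.0705), and HSP150 was gained without point 2 (0.0467). Over 11 alternatives the adjusted p ranged from 3.03e-10 to 0.107 for PIR3, from 9.15e-10 to 0.108 for CWP1 and from 0.00151 to 0.187 for CRH1. It ranged from 0.0366 to 0.444 for SLT2, from 0.00897 to 0.458 for HSP150 and from 0.0243 to 0.433 for FKS1. The fitted term stayed below 0 in each of these alternatives for these 6 genes.

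**Figure D2:**
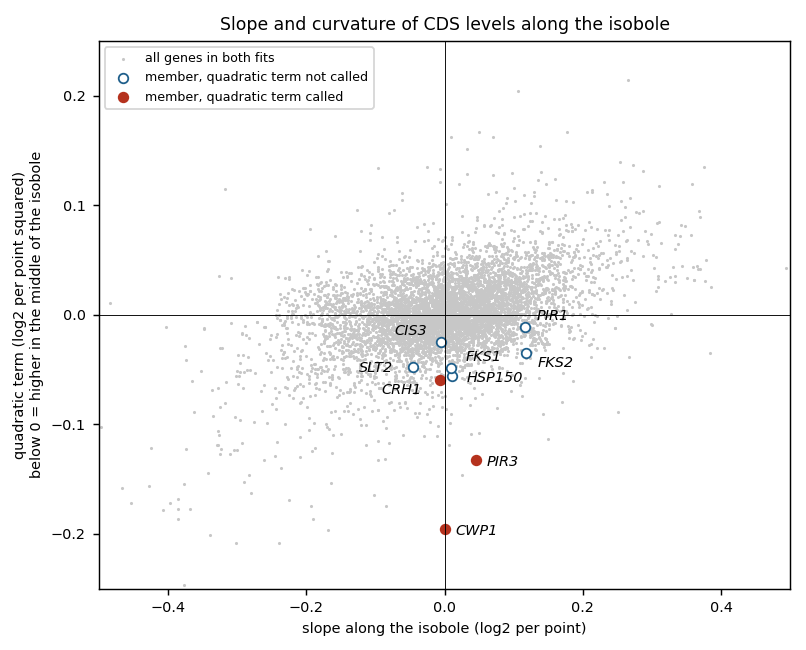
Slope along the isobole (horizontal axis, log2 per point) against the quadratic term (vertical axis, log2 per point squared) for 6491 genes in grey, with 7 genes outside the axes, and for the 9 wall genes, in red where the quadratic term passed the test and open where it did not. PIR3, CWP1 and CRH1 lie below 0 near a slope of 0, and PIR1 and FKS2 lie to the right.

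Along the isobole as a straight trend, from cycloheximide only to LiCl only, PIR1 was the one gene of the 9 that changed. It rose by 0.12 per point on the log2 scale (edgeR adjusted p = 0.0144, over 6498 genes), against 15.6% of all genes rising and 15.6% falling, so 1 of 9 is no more than the background. Without the cycloheximide only library its adjusted p was 0.0746, within a range of 0.00151 to 0.0746 over 11 alternatives. FKS2 had the same slope of 0.12 with an edgeR adjusted p of 0.0553. It passed without point 6 (edgeR adjusted p = 0.0153), with scaling by total counts (0.0238) and with DESeq2 (0.0187), within a range of 0.0153 to 0.283. The other 7 genes had slopes of -0.05 to 0.05 and edgeR adjusted p of 0.332 to 0.999, and CWP1 alone among them passed in an alternative, without LiCl only (slope 0.22, edgeR adjusted p = 0.04996, range 0.04996 to 1.00). The median slope of the 9 genes was 0.0096, beside 0.0026 over all genes.

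FKS2, the stress form of glucan synthase, was lowest where cycloheximide was given alone. It had 139, 190.5, 209, 240.0, 274, 186 and 273.5 CPM at points 1 to 7, against 274 CPM without drug. The level climbed over the first 5 points, was low again at point 6, and at points 5 and 7 was that of the culture without drug. Per base, FKS2 over FKS1 within each library was 0.280, 0.277, 0.310, 0.357, 0.387, 0.279 and 0.511 at points 1 to 7, against 0.480 without drug. Only LiCl only exceeded the ratio without drug. FKS1 alone varied 1.43-fold over the isobole and FKS2 alone 1.97-fold.

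The ratio of FKS2 to FKS1 followed the isobole point with Pearson's r of 0.690 (two-sided exact permutation p = 0.0825, or 0.495 after adjustment over a family of 6 tests). Ranked, it gave Spearman's rho of 0.571 (exact permutation p = 0.2, adjusted to 0.6). The smallest p that 7 libraries allow is 0.000397. Single libraries moved this value both ways. Without LiCl only r was 0.417 (exact permutation p = 0.378), and without point 6 it was 0.980 (exact permutation p = 0.00278). Leaving out points 1 and 7, the farthest from the middle, r over the 5 mixtures was 0.246 (exact permutation p = 0.65), where the smallest p possible is 0.0167. A trend over all 7 libraries was therefore not shown.

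The ratios within the PIR pairs had other shapes. PIR3 over PIR1 per base was 0.209, 0.334, 0.438, 0.457, 0.375, 0.215 and 0.209 at points 1 to 7, against 0.188 without drug, so PIR3 gained on its neighbour at points 2 to 5 and had come back at point 6. With shared reads taken out under even coverage the ratio was 0.146, 0.275, 0.384, 0.404, 0.318, 0.153 and 0.147, against 0.125 without drug. CIS3 over HSP150 was 0.428 in cycloheximide only and 0.298 to 0.349 at the other 6 points, against 0.315 without drug. No trend of either ratio with the isobole point passed the test, and r was -0.223 for PIR3 over PIR1 (exact permutation p = 0.628, adjusted to 0.942) and -0.272 for CIS3 over HSP150 (exact permutation p = 0.585, adjusted to 0.942). By ranks, rho was 0.0 for PIR3 over PIR1 (exact permutation p = 1.0, adjusted to 1.0) and 0.0357 for CIS3 over HSP150 (exact permutation p = 0.963, adjusted to 1.0). Over the 5 mixtures r was -0.541 (exact permutation p = 0.4) and 0.671 (exact permutation p = 0.267), and without cycloheximide only r for CIS3 over HSP150 was 0.746.

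**Figure D3:**
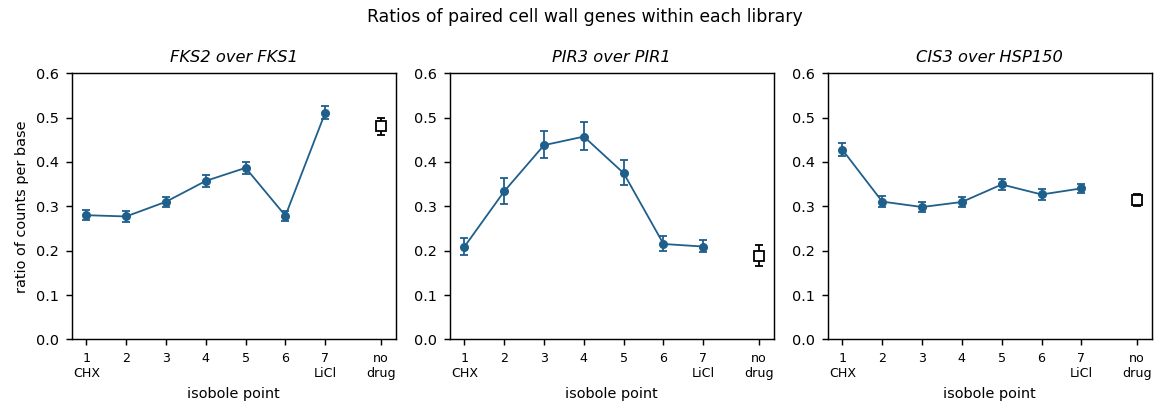
Ratio of counts per base of CDS within each library (vertical axis, from 0) for FKS2 over FKS1, PIR3 over PIR1 and CIS3 over HSP150, at isobole points 1 to 7 (circles) and without drug (squares), with 95% counting intervals. FKS2 over FKS1 is highest in LiCl only at 0.511 and drops back to 0.279 at point 6, and PIR3 over PIR1 peaks at 0.457 at point 4.

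Set against the culture without drug, FKS2 stood at 0.508-fold and CWP1 at 1.66-fold in cycloheximide only, and PIR3 at 1.65-fold in LiCl only. These are differences between single libraries, without a test. In LiCl only, 0 of the 9 genes were past 2-fold in either direction, while 11.6% of all genes were at least 2-fold higher and 6.43% at least 2-fold lower. PIR3 (log2 0.72, counting SE 0.093) and PIR1 (log2 0.57, counting SE 0.040) were higher there, and the other 7 genes lay between -0.26 and -0.0012. In cycloheximide only, 0 of the 9 were past 2-fold, while 5.83% of all genes were at least 2-fold higher and 2.14% at least 2-fold lower. With 9 genes, counts of 0 are near these shares. CWP1 was higher there (log2 0.73, counting SE 0.089), FKS2 was lower (log2 -0.98, counting SE 0.034) and HSP150 was lower (log2 -0.53, counting SE 0.016), while the other 6 genes lay between -0.20 and 0.13. These comparisons share the library without drug.

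Scaling by total counts shifted the median of all genes to 0.34 in both comparisons, beside 0.02 and 0.04 with TMM, and with it PIR3 reached 1.04 in LiCl only and CWP1 1.03 in cycloheximide only, past 2-fold. Under that scaling all 9 genes were higher in LiCl only than without drug, the 7 that were lower under TMM lying at 0.064 to 0.32, so their direction depends on the scaling. With relative log expression (RLE) scaling FKS2 reached -1.01 in cycloheximide only, also past 2-fold. In LiCl only over cycloheximide only, 5.99% of all genes were at least 2-fold higher and 7.17% at least 2-fold lower, against 0 of the 9 in either direction. The largest differences were 0.98 for FKS2 (counting SE 0.029) and -0.94 for CWP1 (counting SE 0.071), with PIR3 and PIR1 at 0.64 and 0.63. No drug lay above all 7 isobole libraries in 0 of the 9 genes, against 24.6% of all genes.

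The wider wall pathway was described over 77 listed genes in 4 groups, all of them tested, by the same slope test. In cell wall integrity signalling 5 of 21 rose and 0 fell, beside the 15.6% of all genes that rose. The steepest were WSC3, a sensor of the plasma membrane (11.1, 11.6, 13.5, 11.5, 14.3, 19.1 and 19.6 CPM at points 1 to 7, against 11.6 without drug), and the phosphatases MSG5 and PTP3, which act on MAP kinases. Their slopes were 0.14, 0.13 and 0.12 per point (edgeR adjusted p = 0.00720, 0.0166 and 0.0277). SLT2 itself was not among the 5. Counts in this group moved with single libraries. They were 1 rising without LiCl only, 3 rising without point 6, and 2 rising and 2 falling without cycloheximide only. Called slopes over all genes, in either direction, also became fewer in these settings. They numbered 836 without LiCl only, 1484 without point 6 and 1465 without cycloheximide only, beside 2027 in the full fit. Whether this group lost more calls than all genes did was not tested. WSC3 was lost without LiCl only (edgeR adjusted p = 0.0562), and MSG5 and PTP3 were lost without cycloheximide only (0.0968 and 0.154), without point 6 (0.0528 and 0.0784) and without LiCl only (0.0517 and 0.0655).

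In glucan synthesis and remodelling 8 of 23 genes rose and 0 fell, beside 15.6% of all genes rising and 15.6% falling, and FKS1, FKS2 and CRH1 were not among the 8. FKS3, a relative of FKS1 with a role described in spores, had 8.37, 10.9, 12.4, 15.8, 15.6, 19.3 and 24.3 CPM at points 1 to 7, against 7.57 CPM without drug, a slope of 0.24 (edgeR adjusted p = 0.000557). SCW11 and SCW4, glucanase-like wall proteins, had slopes of 0.20 (edgeR adjusted p = 0.00228) and 0.18 (0.00266). Over the alternatives the count was 6 to 9 rising, and the adjusted p of FKS3, SCW11 and SCW4 stayed at or under 0.00722, 0.0164 and 0.0154. DESeq2 also called 1 gene falling.

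In chitin synthesis 2 of 9 rose, the chitin synthase CHS1 (slope 0.18, edgeR adjusted p = 0.00526) and SKT5, an activator of chitin synthase III (0.10, 0.00694). With QRI1 as the 1 gene falling, these counts are near the background of 15.6% of all genes in each direction. QRI1 makes the precursor UDP-N-acetylglucosamine and fell (-0.09, edgeR adjusted p = 0.00943). All 3 were lost without LiCl only, with edgeR adjusted p of 0.0513, 0.0595 and 0.0745. CHS2, the septum chitin synthase, had 37.4, 63.6, 64.6, 71.2, 69.1, 61.6 and 39.7 CPM at points 1 to 7, against 32.3 CPM without drug, and its quadratic term was -0.10 (edgeR adjusted p = 0.0185). GFA1, the first enzyme of chitin precursor synthesis, had a quadratic term of -0.08 (edgeR adjusted p = 0.0251), with 177, 216, 225, 226, 195, 178 and 107 CPM, against 153 CPM without drug. CHS2 and GFA1 lost this call without cycloheximide only, point 3, point 4 or LiCl only, with edgeR adjusted p of 0.0590 to 0.187 and 0.0886 to 0.247, and GFA1 also with total counts (0.0501). These genes were named after their values were seen.

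In mannoproteins and other wall proteins 4 of 24 rose and 0 fell, PIR1 being one of the 4, and the rising share is near the 15.6% of all genes that rose. PRY3, a GPI protein of the wall, had a slope of 0.14 (edgeR adjusted p = 0.00942), and PIR5, a PIR protein that stood at only 0.970 to 3.04 CPM, had a slope of 0.21 (edgeR adjusted p = 0.0211). Without cycloheximide only the count was 1 rising and 5 falling. In that setting 1465 of all genes had a called slope, 708 of them rising, beside 2027 and 1014 in the full fit. There the edgeR adjusted p was 0.0556 for PRY3 and 0.0848 for PIR5, which was also lost without LiCl only (0.275). Outside the 9 genes, SED1, an abundant GPI wall protein, bent below 0 (-0.11, edgeR adjusted p = 0.0117). It had 549, 900, 981, 1018, 862, 726 and 464 CPM at points 1 to 7, against 498 CPM without drug, and was likewise named after its values were seen. Its call was lost without cycloheximide only (edgeR adjusted p = 0.107), point 3 (0.0573), point 4 (0.0583) or LiCl only (0.0695). With the 9 genes left out, CHS2, GFA1 and SED1 were the only listed genes whose quadratic term was called. They were 0 of 20, 0 of 20, 2 of 9 and 1 of 19 genes of the 4 groups, beside 0.874% of all genes. Mixtures above both single-drug libraries occurred in 5 of 21, 7 of 23, 2 of 9 and 6 of 24 genes of the 4 groups, and with the 9 genes left out in 4 of 20, 5 of 20, 2 of 9 and 2 of 19, beside 4.57% of all genes.

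Genes with profiles most like those of FKS1, FKS2 and PIR3 were taken by Pearson's r of log2(CPM + 1) over the 8 libraries, a description without a test, since the genes share libraries. For FKS1 they were PDR5, a drug efflux pump of the plasma membrane (r = 0.912), HST3, a histone deacetylase of the sirtuin family (r = 0.911), and PAN1, an endocytic scaffold (r = 0.902). PDR5 had 509, 754, 679, 708, 733, 625 and 451 CPM at points 1 to 7, against 487 CPM without drug. For PIR3 they were YPR089W (r = 0.985), PRY1, a secreted sterol-binding protein (r = 0.972), and MMR1, which carries mitochondria to the bud (r = 0.965).

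PRY1 had 68.4, 142, 169, 161, 153, 133 and 106 CPM at points 1 to 7, against 55.8 CPM without drug, the same order of high mixtures, intermediate LiCl only and low cycloheximide only as PIR3. YPR089W moved over a narrow range, with 37.8 to 43.9 CPM in the 8 libraries. For FKS2 they were PEX18 (r = 0.941), a peroxisomal import factor at only 1.70 to 2.79 CPM, YDR034C-A (r = 0.923), and YAR009C (r = 0.914), a transposon Ty1 reading frame whose counts are uncertain because near-identical copies share reads.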

How the data were processed

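Ribodepleted RNA of 8 cultures was sequenced by the authors, and the deposited values are raw read counts per CDS. Per the file headers the counts were made with featureCounts 1.6.2, which counted a read once at each place it mapped to and once for each feature it overlapped, without a strand setting. Per the labels the reads were aligned with TopHat to build R64. Tables of intron counts were not used because none of the 9 genes has a row in them. Depth was 13693401 to 28042336 CDS counts per library.

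Groups came from the sample titles. Slopes and quadratic terms over the isobole point were fitted to the 7 isobole libraries with the quasi-likelihood test of edgeR 4.0.16 (TMM scaling, filterByExpr, Benjamini-Hochberg adjustment over all genes, threshold 0.05). The fits treat points as evenly spaced and the scatter about the curve as error. Folds of single libraries used a pseudocount of 0.5 counts, with a Poisson counting SE. Ratio trends were tested by two-sided exact permutation. Alternatives were RLE and total scaling, no count filter, DESeq2 1.42.0, other pseudocounts and leaving out each library. The fits were tested on simulated data whose scatter came from these 7 libraries, so that test cannot speak to the spread between cultures.

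The 9 genes, the lists and the tests were chosen with earlier results of these data known. Beside the 9 genes, the text names per list up to 3 genes with the steepest called rise or fall. For FKS1, FKS2 and PIR3 it names the 3 genes of most similar profile. CHS2, GFA1 and SED1 were named after their values were seen, for a called quadratic term below 0 without a called slope. The rules on mixtures against single-drug libraries, and the estimate of shared reads, were added after the values were seen. Sequences were read from the RefSeq R64 genome, in which all 9 CDS had the deposited coordinates. Software was R 4.3.3, Python 3.11.15, numpy 2.4.6, pandas 2.3.3, scipy 1.17.1, Biopython 1.88 and matplotlib 3.10.9.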

Additional observations from a re-analysis of the deposited data

How the results depend on the processing

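With 1 library per condition the spread between cultures was not measured, and the trend tests rest on 7 libraries. No paired analysis was possible because each condition is 1 library. The number of genes with a slope was 2027, and 836 to 2193 when single libraries were left out, lowest without LiCl only. The number with a quadratic term was 77, and 285 with DESeq2 and 0 to 237 when single libraries were left out, lowest without cycloheximide only, where edgeR gave 1152 genes at an unadjusted p under 0.05. Scaling by total counts gave 1274 genes at least 2-fold higher and 214 lower in LiCl only over no drug, beside 756 and 418, and 737 and 50 in cycloheximide only over no drug, beside 379 and 139. It put no drug below all 7 isobole libraries in 7 of the 9 genes, beside 1, and RLE scaling put it above all 7 in 1, beside 0. The shares of all genes with these patterns were counted under TMM only.

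Slopes of genes without a called slope changed sign in some alternatives. Under total scaling they were 0.0024 for CIS3 and 0.00080 for CRH1. Leaving out single libraries, they ranged from -0.090 to 0.012 for SLT2, from -0.10 to 0.16 for PIR3, from -0.065 to 0.056 for HSP150, from -0.029 to 0.024 for CIS3, from -0.16 to 0.22 for CWP1, from -0.049 to 0.061 for FKS1 and from -0.071 to 0.048 for CRH1. The quadratic term of PIR1 ranged from -0.020 to 0.012. The correlation r with the isobole point ranged from 0.417 to 0.980 for FKS2 over FKS1, from -0.726 to 0.0845 for PIR3 over PIR1 and from -0.441 to 0.746 for CIS3 over HSP150, which was 0.671 over the 5 mixtures. The cause of these changes was not tested. The count of genes with mixtures above both single-drug libraries was 7 under TMM and RLE and 6 under total scaling, and that of genes at least 2-fold above no drug in all mixtures was 2 under each.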
